A study of Homo sapiens with 2 samples.

Results

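The nuclear-encoded subunits of the respiratory chain and of ATP synthase were followed in U251 cells, an established human glioma line, with and without miR-31 over-expression. Members were chosen by symbol alone, as every gene whose name in the array annotation starts or reads as NDUFA, NDUFB, NDUFC, NDUFS or NDUFV with a number, SDHA to SDHD, UQCR, COX4 to COX8 or ATP5. Only probe sets annotated with 1 gene were used, and the probe set with the highest mean of both arrays stood for a gene. This gave 78 genes of 19775 measured: 32 of complex I, 3 of complex II, 6 of complex III, 18 of complex IV and 19 of complex V.

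The series holds 1 Affymetrix HG-U133_Plus_2 array of U251 cells transfected with miR-31 and 1 array of U251 cells transfected with a control, both grown in DMEM with serum. Neither the kind of construct nor the time of harvest is stated, and no genotype or other agent separates the groups. With 1 array per group there is no replicate spread, so no test was possible and every difference below is between 2 RNA samples. The annotated mature form of the transfected microRNA is shown because it defines the miR-31 group. Its seed, bases 2 to 8, is in capitals, and it lies at chr9:21512158-21512178 on the minus strand of GRCh38.p14, per RefSeq.
hsa-miR-31-5p: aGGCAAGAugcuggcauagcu

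The respiratory chain passes electrons from NADH (complex I) and succinate (complex II) through complex III to oxygen at complex IV, and the proton gradient that this builds drives ATP synthase (complex V). Except for complex II, the complexes are mosaics: their innermost membrane subunits are made from mitochondrial DNA, and the subunits described here are encoded in the nucleus and imported. Glioma cells in culture are known for high glycolysis, while keeping a working respiratory chain.

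Deposited values are linear intensities that had been scaled to a common trimmed mean of 500.1 on both arrays. Ratios are log2(intensity + 16) on the miR-31 array minus the same on the control array, so a positive ratio means higher with miR-31. The median ratio over all genes was 0.01. Spiked bacterial transcripts added at hybridisation had a median ratio of 0.19 over 18 probe sets, with a range of 0.01 to 0.48. Poly-A transcripts spiked into the RNA had 0.55 over 24 probe sets, with a range of -0.07 to 1.23. Centring on the median of either set shifts every gene by -0.19 or -0.55. Given these ranges, the size of either shift is not well fixed. Directions below are on the deposited scale. The 3' to 5' intensity ratio of GAPDH was 1.01 on the miR-31 array and 0.95 on the control array, and that of ACTB was 2.17 and 2.39. Vimentin (VIM) had 34112 on the miR-31 array and 29991 on the control array, and GFAP had 3624 and 2007. SOX2 was also higher in the miR-31 array (17486 and 13333). In contrast, NES had 5877 in the miR-31 array and 11039 in the control array, SOX9 had 2826 and 4170, and CD44 had 20146 and 23866. Ratios of single probe sets spanned -0.48 to 0.60 for SOX2, -0.91 to 0.03 for NES and -0.69 to 0.28 for CD44. The astroglial markers S100B and OLIG2 lay under the median probe set level of 62.6 and were treated as not separable from background. That level is a working cut-off and not a measured detection limit. Of the 8 astroglial markers 6 reached that level, and so did 3 of 4 neuronal markers. None of the 4 measured markers of microglia, macrophages and lymphocytes and none of the 5 muscle markers reached that level.

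Most subunit genes were slightly higher in the miR-31 array on the deposited scale, though not with centring on either set of spiked controls, and few differed by much. Of the 78 members, 66 had a ratio above 0, which is 84.6%, against 50.8% of all genes. These shares were 43.6% and 34.6% with centring on the hybridisation controls. With centring on the poly-A controls they were 5.13% and 15.9%. Their median ratio was 0.15, and it exceeded that of all genes by 0.14. Over the 12 other ways of processing that were tried, this gap lay between 0.12 and 0.22. Median centring and centring on either set of spiked controls subtract a constant, so they keep the gap at 0.14 by construction. The members' own median fell below 0 when ratios were centred on the hybridisation controls (-0.04) or the poly-A controls (-0.40). In RNA from a whole culture, a change in the number of cells that express a gene and a change in RNA per cell cannot be told apart.

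Changes of size were rare. At 1.5-fold 3 members were higher and 1 lower (background over all genes 14.8% higher and 12.6% lower). They were NDUFA3, COX6A1P1 and ATP5MF, and COX4I2, of which COX6A1P1 and ATP5MF lay on both arrays under the level of 62.6 and COX4I2 did on the miR-31 array. At 2-fold 0 members were higher and 1 was lower (5.99% and 5.07%). The complex III core protein UQCRC1 was the lowest member that is neither a tissue isoform nor a pseudogene, at -0.35. Since dim probe sets scatter more than bright ones, the members were also set beside the 4944 brightest genes, those with a mean level of at least 1073. In that stratum 45.2% of genes had a ratio above 0 and the median was -0.03, with 4.65% at least 1.5-fold higher, 5.48% at least 1.5-fold lower, 1.58% at least 2-fold higher and 1.19% at least 2-fold lower. Of the 69 members in it, given as a description because brightness was taken over both arrays, 63 had a ratio above 0, 1 was at least 1.5-fold higher and 0 were at least 1.5-fold lower. Of the members 71 reached the median probe set level of 62.6 and 7 did not, namely COX6A1P1, COX7A1, COX8C, COX7B2, COX6A2, COX6B2 and ATP5MF. Of the 11792 genes at that level or above, 53.2% had a ratio above 0, 11.7% were at least 1.5-fold higher and 6.72% at least 1.5-fold lower, and 3.74% were at least 2-fold higher and 1.58% at least 2-fold lower. The 6 tissue isoforms and 2 pseudogenes of the family all lay outside the 4944 brightest genes. Without them, 64 of the remaining 70 members had a ratio above 0, with a median of 0.18.

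**Figure D1:**
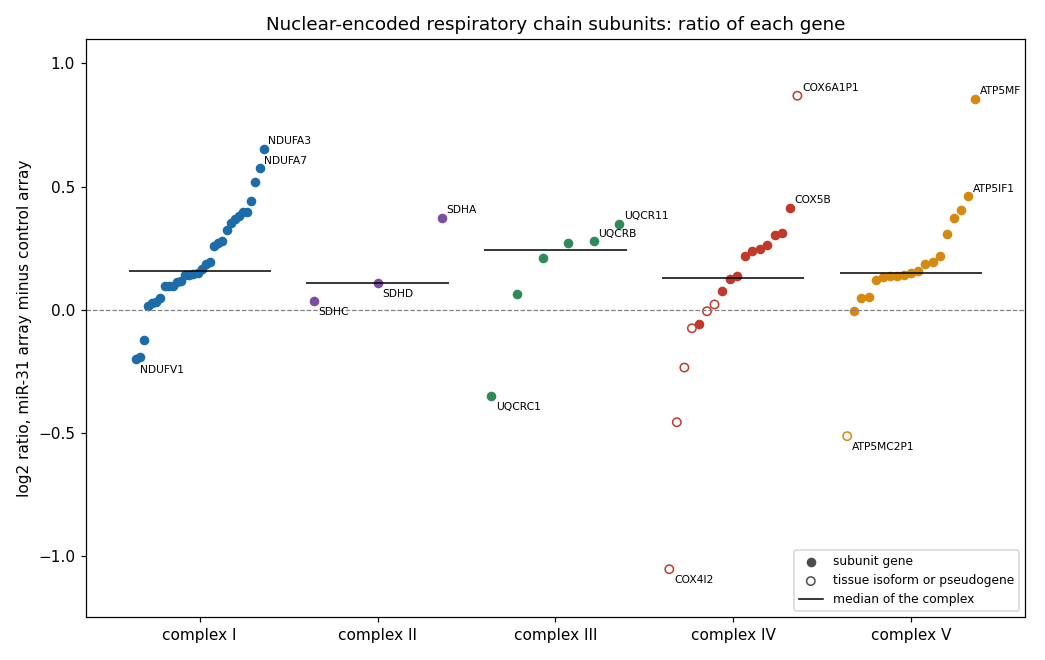
Log2 ratio of each of the 78 members (miR-31 array minus control array, deposited scale), by complex; filled points are subunit genes, open points tissue isoforms or pseudogenes, and bars the median of the complex. In each complex the median lies above 0, between 0.11 and 0.24, but centring on the poly-A controls puts all 5 medians below 0, and centring on the hybridisation controls all but that of complex III.

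**Figure D2:**
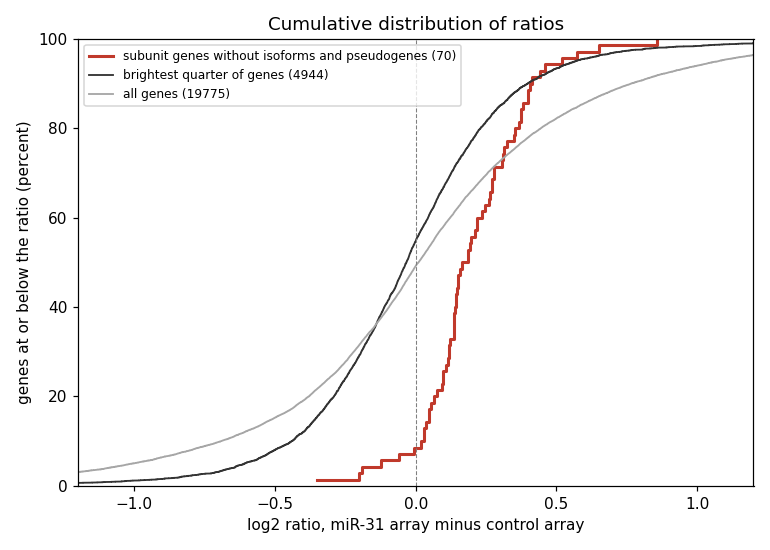
Cumulative percentage of genes (vertical axis) at or below each log2 ratio (horizontal axis, miR-31 array minus control array, deposited scale) for the 70 subunit genes without isoforms and pseudogenes, the 4944 brightest genes and all 19775 genes. The subunit curve is steep and crosses 0 near its lower end, since 6 of 70 subunit genes had a ratio below 0, while 45.2% of the brightest genes had a ratio above 0; after centring on the poly-A controls most subunit genes lie below 0.

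Promoters are shown because the members moved little but mostly the same way on this scale, and because many respiratory genes are known to carry sites for the factors NRF1, GABPA (an ETS factor), SP1 and YY1. RefSeq promoter windows, from 250 bases before to 50 after the annotated start (GRCh38.p14), were given for 65 of the 78 members. On both strands, the NRF1 letters CGCATGCG were found in 15.4% of member promoters, against 2.19% of 27305 promoters. The corresponding shares were 27.7% and 10.7% for the ETS letters CCGGAAG, 61.5% and 44.6% for the SP1 letters GGGCGG, and 10.8% and 1.85% for the YY1 letters AAGATGGCG. Among promoters of the brightest genes the shares were 4.73%, 23.1%, 71.3% and 4.92% in the same order of motifs, so the ETS and SP1 shares of the members differ little from, or lie below, those of other bright genes. A base can count for more than 1 motif, since CCGGAAG ends and AAGATGGCG starts with the same letters. A match is a description and not a bound site.

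Within the members, median ratios with and without each set of letters were set side by side, with no test of the difference. The median ratio was 0.18 with and 0.16 without the NRF1 letters, 0.23 and 0.14 for ETS, 0.15 and 0.17 for SP1, and 0.22 and 0.15 for YY1. Of the promoters with NRF1 letters, those with the highest and the lowest member ratio belong to NDUFS7 (chr19:1383657-1383956, plus strand) and ATP5F1C (chr10:7787927-7788226, plus strand). Of those with YY1 letters, they belong to NDUFA7 (chr19:8321326-8321625, minus strand) and UQCRC1 (chr3:48609597-48609896, minus strand). Capitals mark every match to the 4 motifs, and each sequence is written along the gene's own strand.
NDUFS7: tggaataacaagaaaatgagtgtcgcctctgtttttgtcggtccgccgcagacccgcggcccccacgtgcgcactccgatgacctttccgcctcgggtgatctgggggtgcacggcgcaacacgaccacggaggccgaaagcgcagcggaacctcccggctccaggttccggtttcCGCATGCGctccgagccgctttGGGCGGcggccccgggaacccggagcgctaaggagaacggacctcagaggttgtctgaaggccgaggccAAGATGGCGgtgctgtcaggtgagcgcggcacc
ATP5F1C: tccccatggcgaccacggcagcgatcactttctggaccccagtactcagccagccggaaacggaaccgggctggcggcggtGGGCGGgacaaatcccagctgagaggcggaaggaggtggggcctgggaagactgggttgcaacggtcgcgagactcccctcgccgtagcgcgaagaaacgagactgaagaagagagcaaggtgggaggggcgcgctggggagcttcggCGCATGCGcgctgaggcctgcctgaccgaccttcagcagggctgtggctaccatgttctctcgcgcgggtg
NDUFA7: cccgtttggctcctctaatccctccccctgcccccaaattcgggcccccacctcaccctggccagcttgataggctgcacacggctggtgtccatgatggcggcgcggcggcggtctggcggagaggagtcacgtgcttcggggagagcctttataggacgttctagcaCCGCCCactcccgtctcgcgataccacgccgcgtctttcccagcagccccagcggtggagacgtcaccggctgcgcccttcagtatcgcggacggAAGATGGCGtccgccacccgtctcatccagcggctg
UQCRC1: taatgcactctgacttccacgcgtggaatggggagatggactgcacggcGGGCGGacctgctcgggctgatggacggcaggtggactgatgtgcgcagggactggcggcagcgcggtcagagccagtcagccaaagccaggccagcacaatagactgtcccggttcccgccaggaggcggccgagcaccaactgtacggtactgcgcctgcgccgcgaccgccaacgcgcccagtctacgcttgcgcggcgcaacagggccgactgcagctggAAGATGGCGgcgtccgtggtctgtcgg

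The NDUFA7 and UQCRC1 windows hold matches to the same motif pair, SP1 and YY1, with the YY1 letters 15 and 24 bases after the start, although the ratios of these genes lay far apart (0.57 and -0.35). Of the 7 member promoters with YY1 letters, 6 held them downstream of the start on the gene's own strand (85.7%), against 57.4% of the 505 promoters with YY1 letters in all. The other 5 of the 7 were NDUFS7, NDUFS4, ATP5PF, NDUFA6 and NDUFA9.

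Complex I, which oxidises NADH and pumps protons, had 29 of 32 members above 0 and a median ratio of 0.16, which becomes -0.03 and -0.39 with centring on the hybridisation and the poly-A controls. It had 1 member at least 1.5-fold higher and 0 at least 1.5-fold lower. The highest were accessory subunits, which surround the catalytic core and are needed for its assembly and stability. NDUFA3 had an intensity of 7624 in the miR-31 array and 4845 in the control array, a ratio of 0.65. NDUFA7 had 4166 in the miR-31 array and 2793 in the control array (0.57). NDUFB1 had 13448 in the miR-31 array and 9382 in the control array (0.52), with its other probe set at 0.58. NDUFA3 and NDUFA7 were the only complex I members whose ratio stayed above 0 under all 5 alternative scalings, at 0.10 and 0.02 when centred on the poly-A controls.

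NDUFA1, an accessory subunit of the membrane arm encoded on the X chromosome, had 19749 in the miR-31 array and 14545 in the control array (0.44). NDUFS7, a core subunit that holds the last iron-sulfur cluster before ubiquinone, had 3362 in the miR-31 array and 2548 in the control array (0.40), but its other probe set was dim, at 65.8 in the miR-31 array and 107 in the control array (-0.59). Further accessory subunits followed in a continuous series, with NDUFA2 at 0.40, NDUFB5 at 0.38, NDUFB10 at 0.37, NDUFB7 at 0.35 and NDUFA13, also known as GRIM-19, at 0.32. NDUFS4, an accessory subunit mutated in Leigh syndrome, had 0.28, NDUFB3 0.27, NDUFA8 0.26 and NDUFA10 0.19. The other accessory subunits above 0 lay between 0.02 (NDUFA9) and 0.17 (NDUFB6).

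Only 3 members of complex I were lower in the miR-31 array. NDUFV1, the flavin-binding subunit at which NADH is oxidised, had 4172 in the miR-31 array and 4800 in the control array (-0.20), and 76.5 and 32.6 on a dim probe set (0.93). NDUFB9, an accessory subunit of the membrane arm, had 8586 in the miR-31 array and 9805 in the control array (-0.19). NDUFV3, an accessory subunit beside NDUFV1, had 1694 in the miR-31 array and 1846 in the control array (-0.12), and 0.28 on a dimmer probe set. The 5 measured core subunits, which carry the flavin and iron-sulfur clusters or build the ubiquinone site, had a median of 0.05, with NDUFS1, the largest of them, at 0.18, NDUFV2 at 0.05 and NDUFS3 at 0.03 between NDUFS7 and NDUFV1. The 27 accessory subunits had a median of 0.17, with 25 above 0. On a dim probe set NDUFS1 had 17.3 in the miR-31 array and 58.6 in the control array (-1.16). The difference between core and accessory subunits was not tested, and the classes were written with the ratios known.

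Complex II, succinate dehydrogenase, links the citric acid cycle to the chain. All 3 members had ratios above 0, between 0.04 and 0.37, but their median is -0.08 and -0.44 with those centrings. SDHA, the flavoprotein that oxidises succinate, had 2983 in the miR-31 array and 2298 in the control array (0.37). The membrane anchors SDHD and SDHC had smaller ratios, with 5455 and 5056 for SDHD (0.11) and 3407 and 3324 for SDHC (0.04), the miR-31 array given first. SDHC was read by 4 bright probe sets between -0.03 and 0.31, and a dim probe set had 32.7 in the miR-31 array and 72.7 in the control array (-0.86). The complex II median was 0.28 with the mean of all probe sets, against 0.11 as reported, and a probe set shared by SDHA and its pseudogenes had -0.04.

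Complex III, which passes electrons from ubiquinol to cytochrome c, had 5 of 6 members above 0 and a median of 0.24, which becomes 0.05 and -0.31 with those centrings. None was past 1.5-fold. Of its 4 small subunits, 3 had ratios above those of both core proteins. UQCR11 had 14969 in the miR-31 array and 11754 in the control array (0.35), UQCRB had 17438 and 14378 (0.28), UQCRQ had 19294 and 15981 (0.27), and UQCR10 had 13944 and 13339 (0.06). The large core proteins, which face the matrix and carry no redox group, had ratios of opposite sign. UQCRC2 had 4919 in the miR-31 array and 4249 in the control array (0.21, with 0.40 on another bright probe set and -0.21 on a dim one), whereas UQCRC1 had 5771 and 7360 (-0.35), from its single probe set. The ratio of UQCRC1 was below 0 under all 12 alternatives, between -0.90 and -0.28. The median of the complex was 0.02 without the _s_at and _x_at probe sets, which can read related transcripts, and dimmer probe sets of UQCR11 and UQCRB had -0.24 and -0.23.

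Cytochrome c1 (CYC1), the haem subunit of complex III that the symbol rule does not take, also had a ratio below 0, at 4648 in the miR-31 array and 6730 in the control array (-0.53). Its electron acceptor cytochrome c (CYCS) had -0.14, with 3 probe sets between -0.34 and -0.14. The complex I subunit NDUFAB1, which is also the mitochondrial acyl carrier protein, had -0.09, while DMAC2L had 0.10 and STMP1 0.07.

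Complex IV, cytochrome c oxidase, has ubiquitous subunits and tissue isoforms, which are described apart. Of the 11 ubiquitous subunits 10 had ratios above 0, with a median of 0.24, and over all 18 members the median is -0.06 and -0.42 with those centrings. COX5B, which binds zinc on the matrix side, was the highest at 14136 in the miR-31 array and 10602 in the control array (0.41), and its 3 bright probe sets lay between 0.41 and 0.42. COX6C had 18528 in the miR-31 array and 14912 in the control array (0.31), and COX7C had 24906 and 20159 (0.30), with 3 bright probe sets between 0.25 and 0.49. COX7B had 23277 in the miR-31 array and 19393 in the control array (0.26), and a dimmer probe set of it had 1.33. COX6A1, with 19262 in the miR-31 array and 16223 in the control array (0.25), COX7A2, with 21540 and 18282 (0.24), and COX6B1, with 12316 and 10588 (0.22), followed. Smaller ratios belonged to COX4I1, with 14431 in the miR-31 array and 13133 in the control array (0.14), COX8A, with 21135 and 19405 (0.12), and COX7A2L, a factor of supercomplex assembly, with 6934 and 6578 (0.08). COX5A, which faces the matrix, was the only ubiquitous subunit below 0, at 15108 in the miR-31 array and 15746 in the control array (-0.06, and -0.13 on its other probe set).

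The 6 tissue isoforms of complex IV had low intensities, and only COX4I2 exceeded 62.6 on either array. Although 5 of them had ratios below 0, a sign was not interpreted where both values lie under 62.6. COX4I2, the isoform of COX4I1 known from lung and from oxygen-poor cells, had 61.3 in the miR-31 array and 144.5 in the control array (-1.05). The miR-31 value lies under 62.6, so the size of the ratio is not well measured. It was the only member past 2-fold as reported, its ratio was -0.73 with a pseudocount of 64, and with a pseudocount of 1 the dim COX6A1P1 and ATP5MF passed 2-fold too. The other 5 isoforms lay under an intensity of 62.6 on both arrays and were treated as not separable from background. They are the heart and muscle isoforms COX6A2 (44.1 in the miR-31 array and 54.7 in the control array, -0.24) and COX7A1 (5.12 and 4.81), and the testis isoforms COX6B2 (11.2 and 21.3, -0.46), COX7B2 (24.3 and 26.5) and COX8C (1.19 and 1.26). The pseudogene COX6A1P1, at 26.0 in the miR-31 array and 6.98 in the control array, had the highest ratio of the family (0.87), from values of the same low kind. Counting isoforms and pseudogene, the complex IV median was 0.13.

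Complex V, ATP synthase, had 17 of 19 members above 0 and a median of 0.15, which becomes -0.04 and -0.40 with those centrings. The 1 member past 1.5-fold was ATP5MF, on a probe set under 62.6 on both arrays. The 5 subunits of the F1 head, where ATP is made, lay close together: ATP5F1A (0.15), ATP5F1E (0.14), ATP5F1B, the catalytic beta subunit (0.13), ATP5F1C, the rotating gamma subunit (0.05), and ATP5F1D (-0.01). The catalytic subunit ATP5F1B had 12287 in the miR-31 array and 11191 in the control array, and ATP5F1D had 2661 and 2675. The peripheral stalk, which holds the head still, had ratios between 0.05 (ATP5PB) and 0.22 (ATP5PF), with ATP5PD at 0.20 and ATP5PO at 0.16. ATP5PB had 23987 in the miR-31 array and 23225 in the control array, and a dim probe set of ATP5PO had 61.9 and 9.17 (1.63).

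The c ring is encoded by 3 genes that make the same mature protein with different import sequences. ATP5MC1 had 2346 in the miR-31 array and 2060 in the control array (0.19), ATP5MC2 had 8191 and 7425 (0.14), and ATP5MC3 had 19494 and 17720 (0.14). The 3 ratios therefore differed by less than 0.171, the SD between probe sets of a gene given below. The pseudogene ATP5MC2P1 had 81.6 in the miR-31 array and 123.3 in the control array (-0.51).

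Higher ratios in complex V belonged to the small membrane subunits and to the inhibitor. ATP5IF1, which blocks ATP hydrolysis when the membrane potential is lost, had 4371 in the miR-31 array and 3172 in the control array (0.46), with 2 further probe sets at 0.27 and 0.09. ATP5MJ had 10280 in the miR-31 array and 7751 in the control array (0.41), but another bright probe set had -0.01. ATP5ME had 14466 and 11170 (0.37, and 0.51 on its other probe set), and ATP5MK had 27375 and 22093 (0.31), again with the miR-31 array first. ATP5MG had 0.12, with 4 bright probe sets between 0.12 and 0.24. ATP5MF was represented by a probe set at 24.0 in the miR-31 array and 6.09 in the control array (0.86). Its bright probe set, which the annotation pairs with a second gene, had 17894 and 15817 (0.18).

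**Figure D3:**
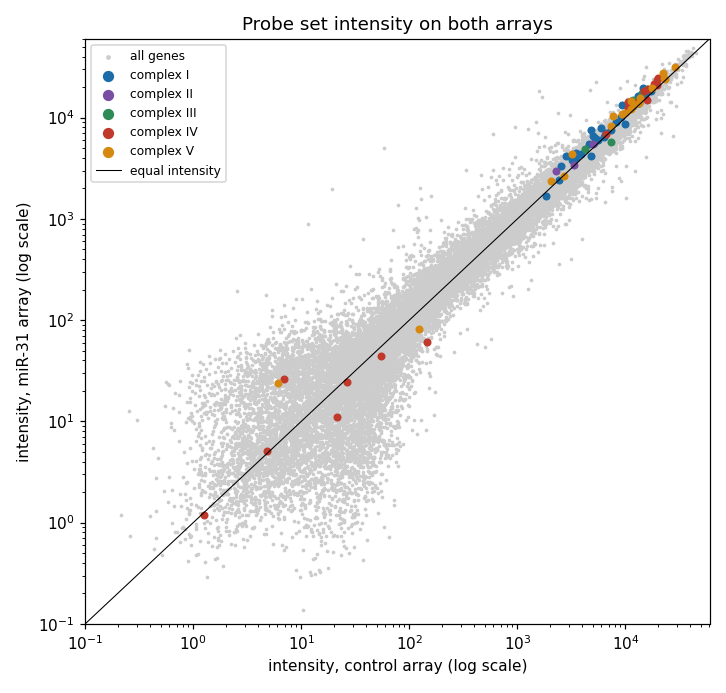
Intensity of each gene on the miR-31 array (vertical, log scale) against the control array (horizontal, log scale), with all genes in grey, members coloured by complex and a line of equal intensity. Nearly all members sit in the bright corner just above the line on the deposited scale, while the 6 tissue isoforms, the 2 pseudogenes and the ATP5MF probe set lie in the dim, scattered part; centring on the poly-A or hybridisation controls would place the line higher.

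How far a single ratio can be trusted was gauged from genes read by more than 1 probe set. Over 1045 genes with exactly 2 probe sets in the bright range, the SD of a single ratio was 0.171, a figure for how probe sets of the same gene disagree, with no part from culture to culture. Of the 69 members in that range, 34 had a ratio above 0.171 and 3 lay more than 0.171 below 0, namely UQCRC1, NDUFV1 and NDUFB9. The other members lay within this SD of 0. These counts become 13 and 7 with centring on the hybridisation controls, and 0 and 59 with centring on the poly-A controls. For comparison, the lower and upper quartiles of the ratio over the 4944 brightest genes were -0.24 and 0.18 on the deposited scale. Of 17 members with at least 2 bright probe sets, 14 had all of them above 0, 0 had all below 0, and 3 were mixed, namely ATP5MJ, ATP5PO and SDHC. When every probe set at or above 62.6 was counted, 18 of 35 members had all ratios above 0, 2 had all below 0 (COX5A and ATP5F1D) and 15 were mixed. The mixed ones not yet described were NDUFA2 (-0.21 on its other probe set), NDUFB7 (-0.14), NDUFB2 (-0.26), NDUFA6 (-0.22), COX4I1 (-0.28), ATP5F1E (-0.19) and ATP5MC3 (-0.03). No share over all genes is given for these sign counts, so they describe the members only.

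Probe sets annotated with several genes were not used for the members, but 12 of them name a respiratory subunit. NDUFS8, a core subunit of complex I, shared its brightest probe set with microRNA genes, at 9408 in the miR-31 array and 8830 in the control array (0.09). A bright probe set of NDUFC2 and its read-through gene had -0.03, that of UQCRH and UQCRHL had 0.13, and that of NDUFS5 and the ribosomal gene RPL10 had 0.33.

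Subunits made from mitochondrial DNA were read by a few probe sets, and 5 of the 7 genes measured had ratios above 0. The median ratio of the 7 genes measured was 0.20. ND4 of complex I had 37557 in the miR-31 array and 30496 in the control array (0.30), ATP6 of complex V had 0.25, COX1 and COX2 of complex IV had 0.24 and 0.20, and ND2 had 0.18. COX3 had -0.12, and ND6, the subunit encoded on the other strand of mitochondrial DNA, had 1930 in the miR-31 array and 2858 in the control array (-0.56). The probe sets of ND6 and COX3 were dimmer than those of the others, and all 5 positive ratios fall below 0 when centred on the poly-A controls.

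Other genes of mitochondrial respiration are given for comparison. Assembly factors, which build the complexes but are no part of them, spread widely on both sides of 0. For complex I, 13 of 20 were above 0 with a median of 0.07, from NUBPL (0.81) and NDUFAF1 (0.56) to NDUFAF4 (-0.56) and ECSIT (-0.97). For complex IV, 12 of 25 were above 0 with a median of -0.04. The highest were the copper chaperone COX17 (0.96) and PET100 (0.81), and the lowest CMC2 (-0.43) and COA7 (-0.54). COX17 was dim, at 143 in the miR-31 array and 65.6 in the control array. Complex III factors had 3 of 8 above 0 and a median of -0.13, with UQCC5 (0.63) and TTC19 (0.44) highest and UQCC1 (-0.30) and BCS1L (-0.35) lowest.

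The 4 factors of complex II had a median of 0.11, and SDHAF4, which protects free SDHA, was more than 2-fold higher at 906 in the miR-31 array and 426 in the control array (1.06). SDHAF2, which helps to attach the flavin, had 0.19, SDHAF1 0.03 and SDHAF3 -0.05. Complex V factors had 4 of 5 above 0 and a median of 0.12, from FMC1 (0.48) and ATPAF1 (0.37) to TMEM242 (0.11) and TMEM70 (-0.06).

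Mitochondrial ribosomal proteins, which translate the mitochondrially encoded subunits, had 25 of 75 above 0 and a median of -0.09. MRPS33 and MRPS31 were highest (0.47 each) and MRPL12 (-0.55) and MRPS30 (-0.60) lowest. Import proteins, through which the members enter the organelle, had 7 of 22 above 0 and a median of -0.13. The pore protein of the outer membrane TOMM40 had 881 in the miR-31 array and 1380 in the control array (-0.64), and the chaperone TIMM13 had -0.60. The highest were TIMM23, dim on both arrays (1.14), and TIMM23B (0.67). Citric acid cycle genes had 8 of 16 above 0 and a median of -0.02, with SUCLG2 (0.81) and OGDH (0.75) highest and SUCLG1 (-0.27) and IDH3G (-0.33) lowest.

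Regulators of mitochondrial biogenesis and mitochondrial DNA had 7 of 17 above 0 and a median of -0.08, none past 1.5-fold. The coactivator PPARGC1A had 82.2 in the miR-31 array and 62.5 in the control array (0.32), and MTERF1 had 0.27. The control value of PPARGC1A lies just under 62.6, so the size of its ratio is not well measured. The related coactivator PPRC1 had 676 in the miR-31 array and 996 in the control array (-0.55), and the mitochondrial DNA helicase TWNK had -0.54. Of the factors whose motif letters were searched, NRF1 had -0.16, GABPA 0.04 and YY1 -0.24. TFAM, which packages and transcribes mitochondrial DNA, had -0.44, at 3073 in the miR-31 array and 4172 in the control array, although 1 of its 4 probe sets was near 0.00.

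Genes of ubiquinone synthesis and other electron donors had 13 of 20 above 0 and a median of 0.17. COQ8B, a kinase-like factor of ubiquinone synthesis, was past 2-fold, at 304 in the miR-31 array and 126 in the control array (1.17), and SQOR, which feeds electrons from sulfide, had 0.77. CHCHD4 had -0.28 and PDSS1, which makes the ubiquinone tail, -0.81. Carriers and channels had 3 of 10 above 0 and a median of -0.09, with UCP2 (0.70) and the ATP carrier SLC25A4 (0.42) highest and VDAC3 (-0.35) and the dim CKMT2 (-1.31) lowest.

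A list of genes that adjust respiration to low oxygen had 9 of 11 above 0 and a median of 0.28. PDK4, a kinase that shuts pyruvate out of the citric acid cycle, had 257 in the miR-31 array and 66.9 in the control array (1.72), and PDK2 had 0.66. The control value of PDK4 lies just above 62.6, on the 1 probe set at that level. The size of its ratio is therefore not well measured. The 2 genes below 0 were BNIP3 (-0.07) and COX4I2, a member described above. Across these lists the share of genes past 1.5-fold can be set against 14.8% and 12.6% of all genes, and none of them was tested against the members. Some genes named in these lists had probe sets of opposite sign. Examples are UQCC1 (-0.45 to 0.37), UQCC5 (-0.05 to 0.63), MRPS30 (-0.60 to 0.32), IDH3G (-0.33 to 0.17) and VDAC3 (-0.35 to 0.28).

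**Figure D4:**
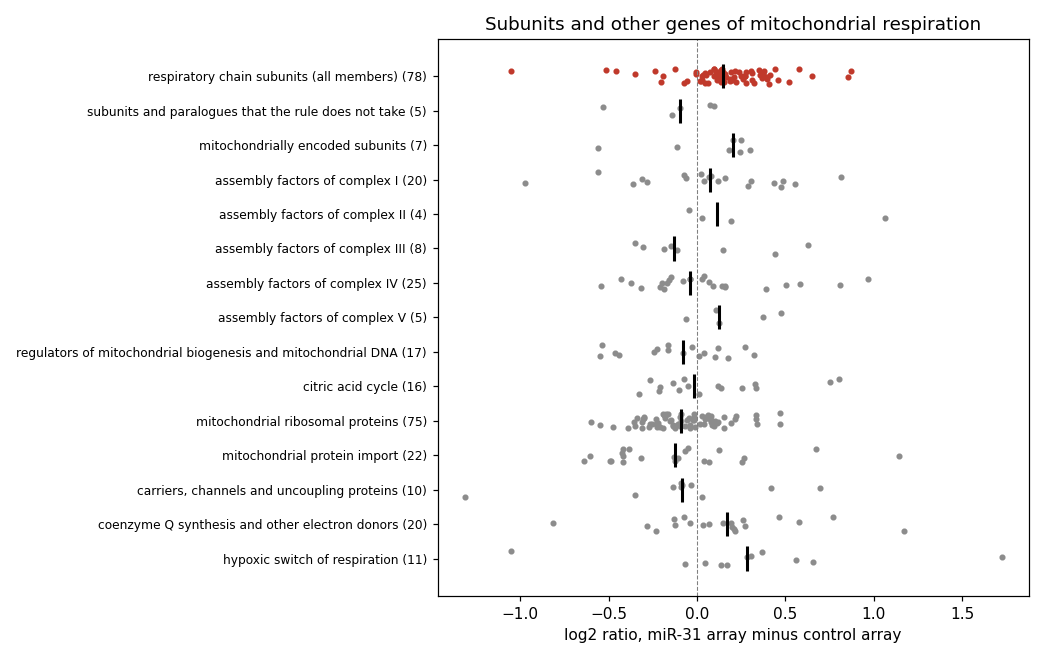
Log2 ratio (miR-31 array minus control array, deposited scale) of every measured gene in the respiratory subunit family and in 14 other lists of mitochondrial respiration, with the number of genes in parentheses and a bar at each median. Subunits (0.15) and the mitochondrially encoded genes (0.20) have medians above 0. So do the low-oxygen list (0.28), ubiquinone synthesis and electron donors (0.17), and assembly factors of complexes V (0.12), II (0.11) and I (0.07). Mitochondrial ribosomal proteins (-0.09), import proteins (-0.13) and the remaining lists have medians below 0. Centring on the poly-A controls puts every one of these medians below 0.

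**Figure D5:**
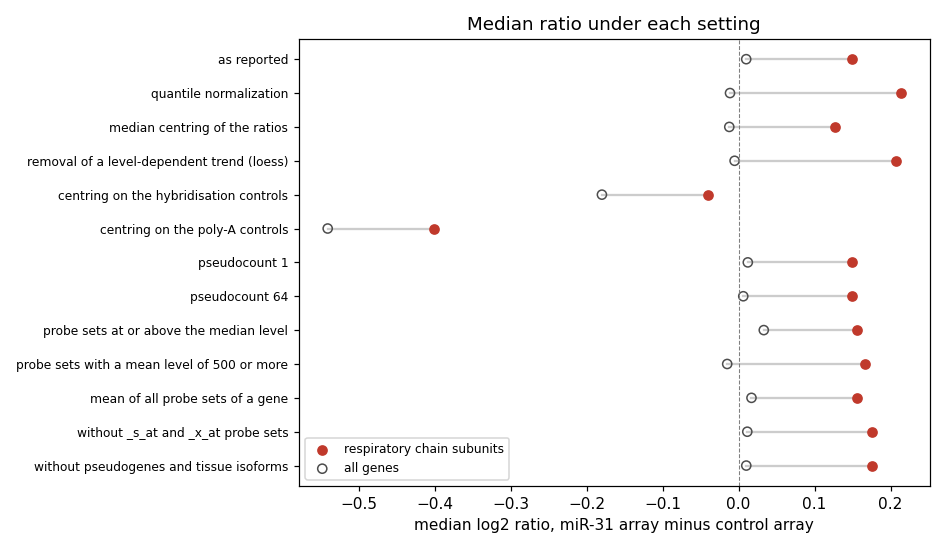
Median log2 ratio (miR-31 array minus control array) of the respiratory chain subunits and of all genes, as reported and under each of 12 other settings, 1 row per setting. The subunit median lies right of the all-gene median in every row, by 0.12 to 0.22. In the rows of median centring and of centring on spiked controls this distance is fixed, since a constant is subtracted. The subunit median falls below 0 with centring on the hybridisation controls (-0.04) or poly-A controls (-0.40).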

How the data were processed

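The deposited table lists a linear intensity on each array for 54675 probe sets; the software and background correction behind it are not given in the sources used here, and the equal trimmed means show that the authors' deposited intensity values had been scaled. The number of arrays limits the precision, and no detection calls were used. The 62 control probe sets were set apart. Probe sets with 1 symbol in the supplied annotation (41091) were used, and all 78 member symbols matched the RefSeq gene table by Entrez identifier. A pseudocount of 16 was added before log2. Members, lists, subunit classes and motifs were chosen with earlier results of these data known. Every member may be named; the 3 highest and 3 lowest of a complex, those past 1.5-fold, those with probe sets of opposite sign, 1 of them beyond 1.5-fold, and the paralogue groups are given in full, and of other lists the 2 highest and 2 lowest. Calculations were tested on simulated data. Some items are not reported here. Loess (span 0.3) came from statsmodels 0.14.6 and figures from matplotlib 3.10.9, with pandas 2.3.3, scipy 1.17.1 and numpy 2.4.6 under Python 3.11.15.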

Additional observations from a re-analysis of the deposited data

How the results depend on the processing

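No paired analysis was possible because a lone array stands for each condition, so none could be omitted either. A median counts as moved here at a log2 change of 0.1, and a count at more than 1.5 times. The share of members above 0, 84.6% as reported, was judged apart from these bounds: 75.6% counted as the same and 72.7% as moved. Of 132 values recomputed under 12 alternatives, 95 counted as the same, 26 moved and 11 changed sign. Centring on the hybridisation controls put the median of all members at -0.041. The medians were -0.032 for complex I, -0.081 for II, 0.051 for III, -0.060 for IV and -0.041 for V. In that setting 43.6% of members were above 0, against 34.6% of all genes, and 3 members were at least 1.5-fold lower. Centring on the poly-A controls put these medians at -0.40, -0.39, -0.44, -0.31, -0.42 and -0.40 in the same order. With it 5.13% of members were above 0, against 15.9% of all genes, so members were above 0 less often. There 0 members were at least 1.5-fold higher, 10 lower by that factor and 3 lower by 2-fold or more. Shares of all genes past these folds are not given for the alternatives. Both centrings subtract a constant, as does median centring, so the members' median distance from all genes is fixed by construction. Quantile normalization and loess each gave 2 members at least 1.5-fold lower. With a pseudocount of 1 there were 3 such members and 2 at least 2-fold higher, and with 64 there were 1 at least 1.5-fold higher and 0 at least 2-fold lower. With probe sets at or above the median level 1 member was at least 1.5-fold higher. At a level of 500 or more there was also 1, with 0 at least 1.5-fold or 2-fold lower and a complex IV median of 0.24. Without pseudogenes and tissue isoforms that median was 0.24 and 0 members were at least 1.5-fold or 2-fold lower. The mean of probe sets gave 0.28 for complex II. Without _s_at and _x_at probe sets 72.7% of 66 members were above 0, against 50.9% of all genes. Of these members 5 were at least 1.5-fold higher and 2 lower, and the complex III median was 0.019. The cause was not tested. Ratios of dim members were not interpreted, since values under 62.6 were treated as not separable from background. That level is a working cut-off and not a measured detection limit.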
